A study of Mus musculus with 46 samples.

Results

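Liver RNA from mice on a low fat diet (LFD) was set against liver RNA from mice on a diet rich in fat (HFD), to describe which known liver genes and pathways differ with dietary fat. The comparison rests on 12 of the 46 arrays of the series, the 6 liver arrays titled LFD against the 6 liver arrays titled HFD. All animals were male C57Bl/6 mice, an inbred strain, 12 weeks old at the start and 20 weeks old after 8 weeks on their diet. Fat supplied 45% of the energy of the HFD and 10% of that of the LFD. The diet tables of the study list more sucrose and corn starch in the LFD in place of lard, so that less fat and more carbohydrate cannot be told apart here. The study also reports that HFD mice were heavier and fatter, with more liver lipid and higher plasma leptin and insulin than LFD mice. Effects of the diet itself and of these states cannot be told apart either. A further 12 liver arrays, of mice fed HFD + inulin (6 arrays) and HFD + inul PB (6 arrays), shared the estimate of the spread.

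The liver converts surplus sugar to fatty acids by de novo lipogenesis, a pathway in which acetyl-CoA is carboxylated, built into palmitate, elongated and desaturated, with NADPH as the reductant. The transcription factors SREBP-1c and ChREBP raise these enzymes when carbohydrate and insulin are plentiful, and dietary polyunsaturated fat lowers them. In fasting, or when fat is the main fuel, the nuclear receptor PPAR alpha favours fatty acid oxidation and ketogenesis. A separate receptor, the constitutive androstane receptor (CAR, encoded by Nr1i3), controls drug-metabolising enzymes and transporters such as Cyp2b10 and Abcc3.

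Each array gave the brightness of single probes as a normalised log2 signal, so that a difference of 1 is a 2-fold difference. Levels of different probes are not comparable. A probe ID was called at a fold over 1.5 with an unadjusted P under 0.01 (limma), and by a second rule where P, adjusted by Benjamini-Hochberg across the 55681 probe IDs, lay under 0.05. By these rules 0.717% and 0.0287% of probe IDs were called. Genes were read from the probe of highest mean signal. Of 20887 genes with a symbol, 0.517% rose and 0.359% fell on LFD by the fold and P criteria. The percent of spots well above background was 46.5 to 50.4 on HFD and 46.4 to 51.7 on LFD. All 8 hepatocyte markers checked, Alb (albumin) among them, were well above background on all 12 arrays, and none was called.

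One array stood apart in its makeup. LFD replicate 4 carried RNA of pancreatic acinar cells, with all 5 measured markers (Cpa1, Cela1, Pnlip, Prss2 and Ctrb1) well above background. The log2 of their summed signal was 16.79 there, against 8.66 to 9.43 on the other LFD arrays and 8.57 to 9.39 on HFD. Cpa1, a digestive carboxypeptidase, was at 14.83 on LFD replicate 4 and at most 4.79 on the other 11 arrays. Adipocyte RNA was also uneven. On HFD replicate 3 and LFD replicates 3 and 4, 4 of the 5 adipocyte markers were well above background, with Adipoq (adiponectin) at 7.96, 9.40 and 8.71, and at most 4.59 elsewhere. Counts are therefore also given without LFD replicate 4, and without these 3 arrays together, a choice made after the marker levels were seen. The red blood cell markers, read on 3 genes, had summed levels of 15.53 to 16.20 on LFD and 15.11 to 15.64 on HFD. The part of other cells in the results below was not tested. In whole tissue, fewer cells of a type and less RNA per cell cannot be told apart.

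**Figure D1:**
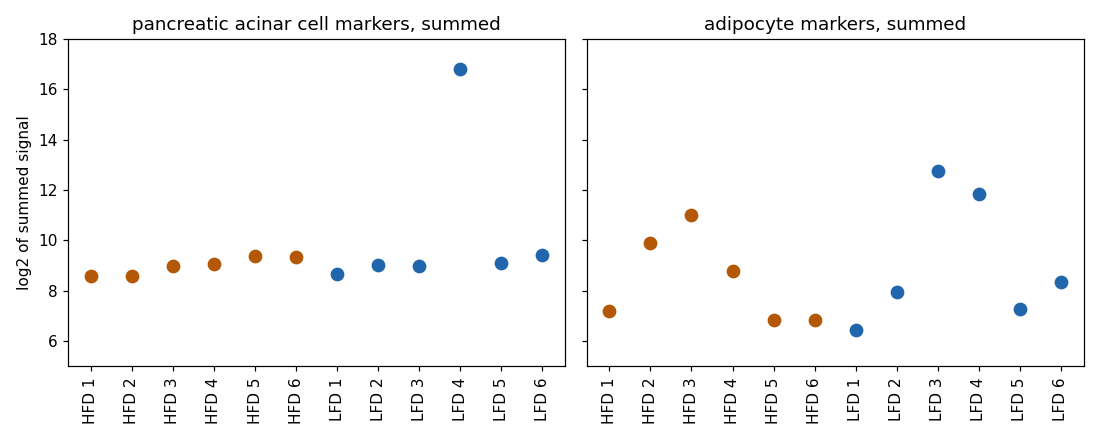
Log2 of the summed signal of 5 pancreatic acinar markers (left) and 5 adipocyte markers (right) on each liver array, brown for HFD and blue for LFD. LFD replicate 4 stands at 16.79 for the acinar markers, and HFD replicate 3 and LFD replicates 3 and 4 have the highest adipocyte sums, from 11.01 to 12.73.

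Among 18 gene lists, the one of lipogenesis and triglyceride assembly held the most calls. Of its 25 measured members, 7 rose on LFD (Acaca, Acacb, Elovl6, Scd1, Acss2, Me1 and Pnpla5), against 0.517% of all genes, and 1 fell (Mogat1). The median log2 difference of the list was 0.70, with 0.004 over all genes, and 22 members lay above 0. The spread of the list median between arrays was 0.53 (SD). Set against the HFD mean, it ran from -0.53 to 0.97 on HFD arrays and from 0.003 to 1.26 on LFD arrays. No member had LFD arrays wholly above or below the HFD arrays. Counts of members are not counts of independent results. At an unadjusted P under 0.05, 13 members were higher and 1 lower, where 4.28% and 4.04% of all genes were. Adjusted P for these members were 0.299 or more. With single arrays left out, 3 (without LFD replicate 1) to 9 members were called higher, with 4 without HFD replicate 3, 5 or 6 or LFD replicate 4 or 6. Without the 3 arrays 3 were (Acaca, Acacb and Pnpla5), and the median was 0.60.

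**Figure D2:**
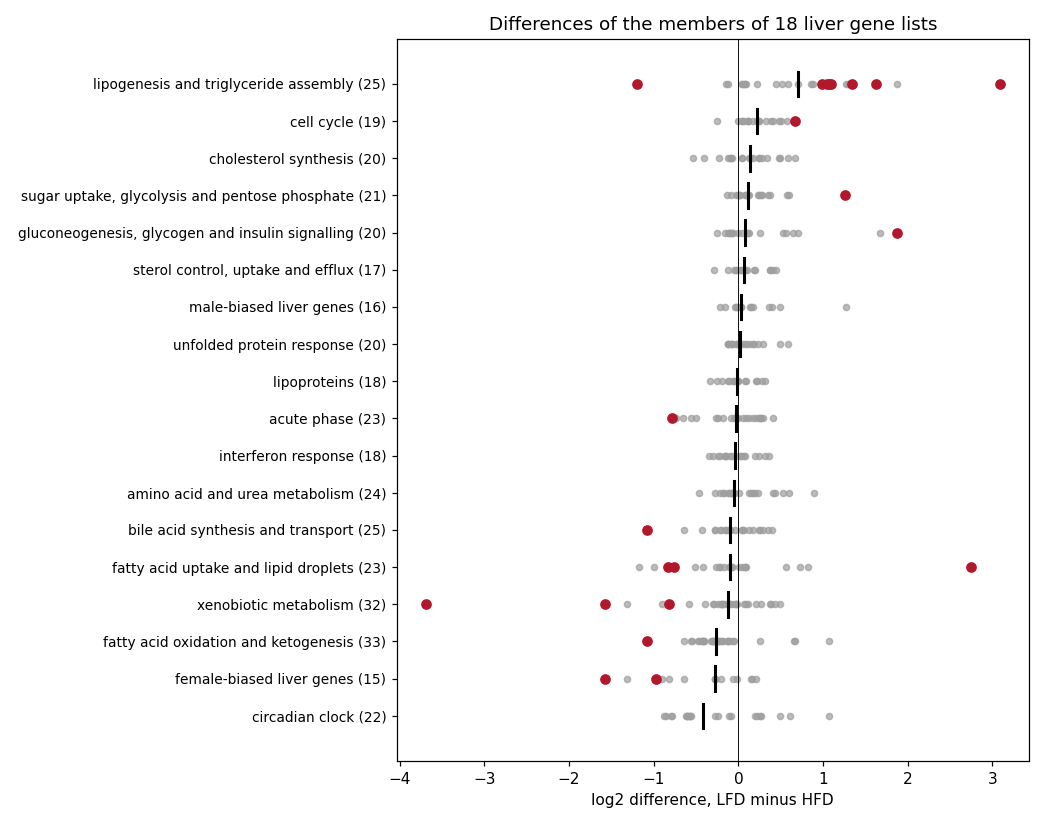
Log2 difference (LFD minus HFD) of every measured member of 18 liver gene lists, with the number of members in brackets; red points passed the fold and P criteria, grey points did not, and the black bar is the list median. The lipogenesis list has the highest median (0.70) and the circadian clock list the lowest (-0.42).

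The first and rate-setting step of the pathway, the making of malonyl-CoA, is catalysed by the acetyl-CoA carboxylases Acaca (cytosolic) and Acacb (at the mitochondrion, where malonyl-CoA restrains fatty acid import). Acaca (lowest, median and highest array) was at 12.52, 13.27 and 14.23 on HFD and at 13.52, 14.65 and 14.87 on LFD. It rose by 1.06 (SE 0.28), or 2.09-fold, with an exact permutation P = 0.0152 (two-sided) and an adjusted P = 0.299. Acacb was at 10.41, 11.45 and 13.41 on HFD and at 11.91, 13.63 and 13.97 on LFD, a rise of 1.62 (SE 0.46) and an adjusted P = 0.377. In both genes the groups overlapped, with HFD replicate 4 highest and LFD replicate 3 lowest in their groups. The other probes of both genes were also higher on LFD, by 0.76 and 0.97 for Acaca and 1.78 for Acacb. Within each of the 3 slides, which held 2 arrays of each diet, Acaca was higher on LFD (0.92, 0.79 and 1.48).

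Enzymes on either side of that step also rose. Acss2, which makes acetyl-CoA from acetate in the cytosol, was at 12.37, 12.91 and 14.46 on HFD and at 13.48, 14.42 and 14.85 on LFD, a rise of 1.10 (SE 0.38). Elovl6 lengthens palmitate. Its levels were 11.34, 12.75 and 13.81 on HFD and 13.00, 14.29 and 14.58 on LFD, and it rose by 1.34 (SE 0.43). Scd1, the desaturase that makes oleate, was at 15.66, 16.05 and 17.38 on HFD and at 16.82, 17.21 and 17.56 on LFD, a rise of 0.99 (SE 0.28). For Scd1, 5 of the 6 HFD arrays lay below all LFD arrays and the exception was HFD replicate 4. Each of these calls was lost without the 3 arrays with foreign RNA, where Elovl6 was 1.20 higher, Acss2 0.9997 and Scd1 0.88. Of the 12 omissions of a single array, 8 ended the call of Acss2 (0.93 to 1.35 higher) and 6 that of Elovl6 (1.08 to 1.58 higher), LFD replicate 4 among them for both genes.

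Several members did not pass the criteria though their differences were similar in size. Fasn, the synthase itself, was at 9.16, 11.52 and 12.37 on HFD and at 11.17, 12.70 and 13.40 on LFD, 1.30 higher (SE 0.57) with an unadjusted limma P of 0.034. Its difference within slides was 0.05, 1.22 and 2.63. Acly, which makes cytosolic acetyl-CoA from citrate, was 0.86 higher (SE 0.39). The elongase Elovl3 was 1.28 higher with an unadjusted limma P of 0.0107, Elovl5 0.70 with 0.0133, and Scd2 0.89 with 0.0152. The difference of Scd2 was 0.40 without the 3 arrays, and its highest LFD value, 11.43, was on LFD replicate 4. The mRNAs of the transcription factors behind the pathway differed little. Srebf1 (SREBP-1) was 11.52 ± 0.40 (SD, n = 6) on HFD and 11.40 ± 0.76 on LFD, and Mlxipl (ChREBP) was 15.31 ± 0.17 and 15.37 ± 0.08.

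NADPH for fatty acid synthesis comes from malic enzyme and from the pentose phosphate pathway. Me1, the cytosolic malic enzyme, was at 12.49, 13.06 and 14.56 on HFD and at 13.20, 14.73 and 14.87 on LFD. It rose by 1.04 (SE 0.37), just inside the criteria (unadjusted limma P of 0.00936), and the call was lost without most single arrays. G6pdx, the first enzyme of the pentose phosphate pathway, gave a clearer separation. It was at 8.60, 8.70 and 9.95 on HFD and at 9.57, 9.94 and 11.22 on LFD, a rise of 1.26 (SE 0.24), or 2.40-fold, with an adjusted P = 0.0677. The lone HFD array above any LFD array was replicate 4. Pgd, the next oxidative enzyme, was 0.58 higher with an unadjusted limma P of 0.0133. In the list of sugar uptake, glycolysis and pentose phosphate genes, G6pdx was the 1 member called of 21, 18 members lay above 0, and the median was 0.11. Pklr, the liver pyruvate kinase, was 0.59 higher with an unadjusted limma P of 0.0211.

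**Figure D3:**
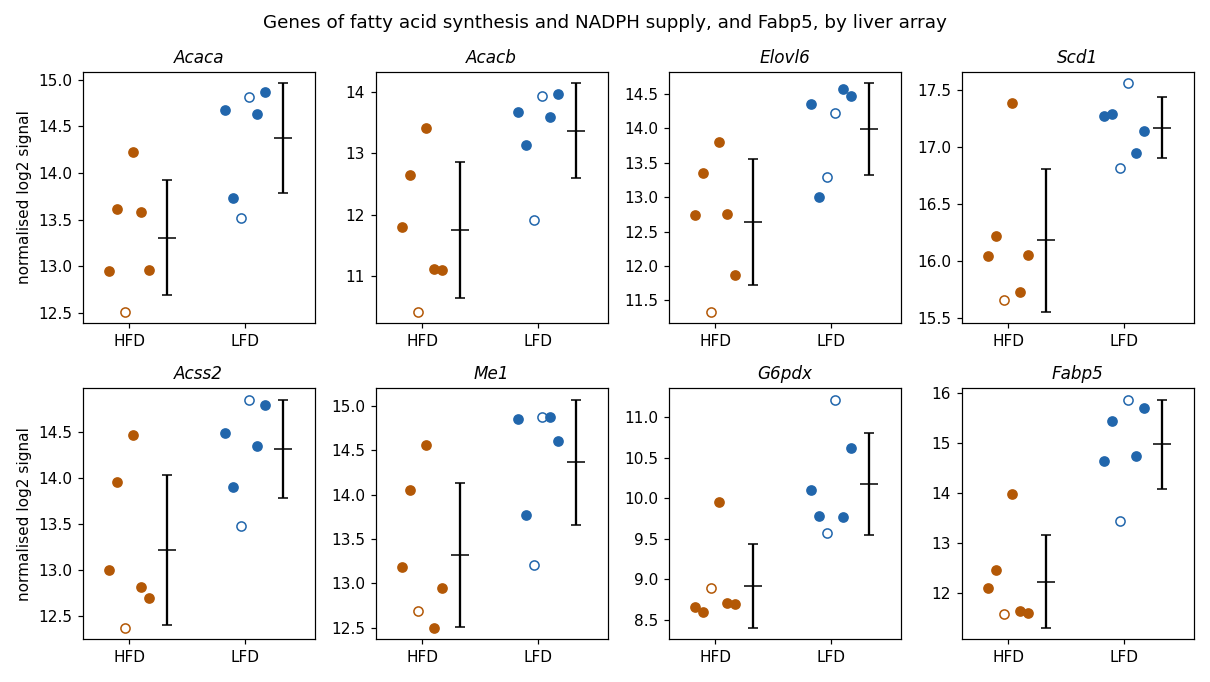
Normalised log2 signal of 8 genes on the 6 HFD (brown) and 6 LFD (blue) liver arrays, with the mean and SD beside each group; open points are HFD replicate 3 and LFD replicates 3 and 4, which carried acinar or adipocyte RNA. In each panel the highest HFD array is replicate 4, and it overlaps the LFD arrays.

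The triglyceride arm of the list moved in both directions. Pnpla5, a patatin-like lipase, was near background. It was well above background on 2 HFD and 5 LFD arrays, at 2.84, 3.18 and 7.72 on HFD and 2.97, 8.35 and 9.37 on LFD, and passed the criteria with a difference of 3.09 (SE 0.94). Since most HFD arrays were at background, that size depends on the background treatment, and it was 1.72 in the deposited table and 1.42 under normexp. Its relative Pnpla3 was 1.88 higher (SE 0.88) and did not pass, although a second probe did (3.104). Mogat1, which acylates monoacylglycerol and is known to be induced in fatty liver, fell by 1.19 (SE 0.42), from 6.06, 6.69 and 8.00 on HFD to 5.10, 5.68 and 6.48 on LFD. That call (unadjusted limma P of 0.00987) was lost in 9 of the 12 omissions of a single array, and the difference was -0.76 in the deposited table and -0.63 under normexp. Dgat2, an acyltransferase of the last step, was 16.69 ± 0.13 on HFD and 16.54 ± 0.27 on LFD. Outside the list, 2 further genes of triglyceride storage fell with no overlap between the groups. Gpat3, a glycerol-3-phosphate acyltransferase, was at 9.06, 9.34 and 9.93 on HFD and 7.88, 8.48 and 8.997 on LFD, a difference of -0.9999 (SE 0.29). Fitm1, a fat storage-inducing membrane protein, was at 10.08, 10.696 and 11.21 on HFD and 9.56, 9.76 and 10.01 on LFD, a difference of -0.86 (SE 0.23).

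The promoters of the called lipogenic genes are shown because these genes moved together and because SREBP binds beside the factor NF-Y, whose site is the CCAAT box. RefSeq (GRCm38.p6) gave 7 promoter windows for 6 of the 7 genes, each from 250 bases before to 50 bases after a transcript start; Scd1 had no entry. CCAAT on either strand was in 4 of the 7 windows, and in 37.4% of all 32851 windows of that length. The sterol element TCACNCCAC was in 0 of 7 (1.24% of all) and the E-box CACGTG in 1 of 7 (7.15%). The windows below hold a CCAAT box, in capitals on the gene's strand (ATTGG where it lies on the other strand). They are chr5:114165268-114165567 (plus strand) for Acacb, chr2:155517793-155518092 (plus strand) for Acss2 and chr15:84123126-84123425 (minus strand) for Pnpla5. A match is a description of the letters and not a site.
Acacb: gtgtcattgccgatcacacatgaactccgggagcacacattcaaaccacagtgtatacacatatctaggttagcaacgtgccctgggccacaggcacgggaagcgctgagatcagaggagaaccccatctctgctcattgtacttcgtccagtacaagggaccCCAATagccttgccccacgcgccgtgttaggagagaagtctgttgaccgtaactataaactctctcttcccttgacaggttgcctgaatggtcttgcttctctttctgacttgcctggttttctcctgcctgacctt
Acss2: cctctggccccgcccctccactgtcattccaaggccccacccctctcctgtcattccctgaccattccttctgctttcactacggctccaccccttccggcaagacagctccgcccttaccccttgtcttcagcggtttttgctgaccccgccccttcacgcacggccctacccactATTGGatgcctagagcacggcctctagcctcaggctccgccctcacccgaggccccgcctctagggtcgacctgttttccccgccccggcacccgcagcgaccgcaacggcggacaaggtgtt
Pnpla5: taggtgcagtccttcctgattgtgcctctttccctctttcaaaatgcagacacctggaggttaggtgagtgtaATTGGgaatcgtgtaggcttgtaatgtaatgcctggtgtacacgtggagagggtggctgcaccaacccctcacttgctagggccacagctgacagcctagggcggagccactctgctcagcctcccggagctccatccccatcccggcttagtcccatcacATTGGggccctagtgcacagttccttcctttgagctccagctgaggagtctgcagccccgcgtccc

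Genes of fatty acid oxidation and ketogenesis lay mostly lower on LFD, by small amounts. Of 33 measured members 29 were below 0, and the median log2 difference was -0.27. By the fold and P criteria 1 member fell (Vnn1), against 0.359% of all genes. At an unadjusted P under 0.05, 12 were lower and 2 higher, where 4.04% and 4.28% of all genes were. Without LFD replicate 4 the median was -0.25 and 11 were lower at that P, and without the 3 arrays -0.28 and 10. No member had an adjusted P under 0.05.

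Vnn1, a pantetheinase, was at 10.04, 10.98 and 11.73 on HFD and 9.03, 9.54 and 11.14 on LFD, a fall of 1.08 on the log2 scale (SE 0.38). This call was just inside the criteria (unadjusted limma P of 0.00908) and was lost without most single arrays, LFD replicate 4 among them (-0.99). Acaa1a, the peroxisomal thiolase, was 16.17 ± 0.13 on HFD and 15.74 ± 0.26 on LFD (difference -0.43, exact permutation P = 0.00866). Bdh1, which makes beta-hydroxybutyrate, was 15.11 ± 0.15 and 14.79 ± 0.22 (difference -0.32). Ppara itself was 0.47 lower on LFD, with slide differences of 0.32, -0.97 and -0.77, and -0.26 without the 3 arrays. Acadm, the medium-chain dehydrogenase, differed by -0.42, and Acaa2, the mitochondrial thiolase, by -0.14. Of the 4 members above 0, 2 had an unadjusted limma P under 0.05. Ppargc1a, a coactivator of PPAR alpha and of gluconeogenesis, was 0.67 higher and Pdk4, which holds pyruvate back from oxidation, 1.07 higher. The others were Fgf21 (0.66, SE 0.82) and Ehhadh (0.25, SE 0.19).

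**Figure D4:**
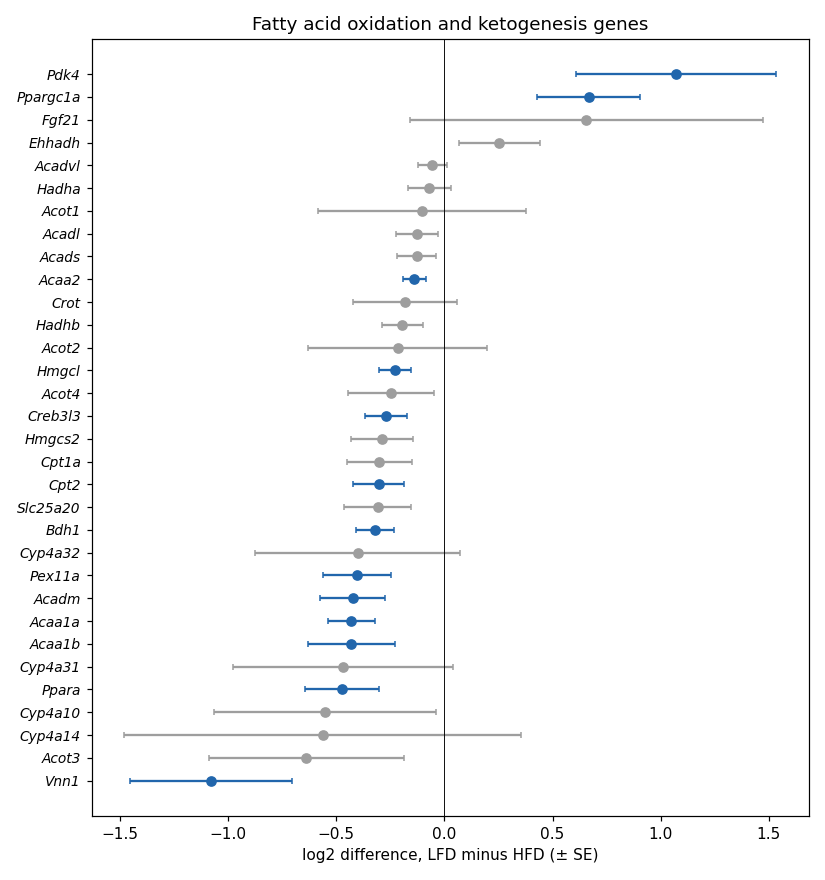
Log2 difference (LFD minus HFD, point) and its SE (bar) for 32 genes of fatty acid oxidation and ketogenesis; blue points had an unadjusted P under 0.05. All but 4 points lie left of 0, and Vnn1 (-1.08) lies farthest.

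Fatty acid uptake and storage genes gave the largest rise of any listed gene with all arrays above background. Fabp5, a fatty acid-binding protein better known from skin and macrophages, was at 11.57, 11.87 and 13.98 on HFD and 13.45, 15.10 and 15.87 on LFD. It rose by 2.75 (SE 0.52), or 6.73-fold, with an adjusted P = 0.0618, and by 2.78 without the 3 arrays. The one overlap was between HFD replicate 4 and LFD replicate 3. In contrast 2 of the 23 members of the list fell, against 0.359% of all genes. Pparg, a nuclear receptor of lipid storage, was at 9.97, 10.40 and 11.13 on HFD and 9.24, 9.77 and 10.09 on LFD (difference -0.76, SE 0.18). Cd36, the fatty acid translocase, was at 8.55, 9.06 and 10.31 on HFD and 8.06, 8.37 and 8.84 on LFD (difference -0.83, SE 0.27). The Cd36 call was lost without any one of HFD replicates 2 and 4 and LFD replicates 2, 4, 5 and 6, at -0.62 to -0.82. The droplet proteins Plin4 (-1.17) and G0s2 (-0.998) had unadjusted limma P of 0.0194 and 0.0154. Plin4, also abundant in adipocytes, passed the criteria at -1.66 without the 3 arrays. Lpl, lipoprotein lipase, was 0.73 higher with an unadjusted limma P of 0.0108. The median of the list was -0.10.

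Abcc3 (MRP3), which exports bile acids and glucuronides to the blood, was at 13.25, 13.61 and 13.76 on HFD and 12.15, 12.46 and 12.98 on LFD. Every LFD array lay below every HFD array. It fell by 1.08 on the log2 scale (SE 0.14), a 2.11-fold difference with an adjusted P = 0.0035 and the smallest exact permutation P that 6 against 6 arrays allow, 0.00216. With the HFD and LFD arrays alone in the limma fit its adjusted P was 0.0979. Abcc3 was the 1 call among 25 bile acid genes, whose median was -0.10, and -0.0018 (the median of bile acid synthesis and transport) without the 3 arrays with foreign RNA.

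Cyp2b10, the classic CAR target, had the largest fall of any listed gene. It was at 7.13, 8.71 and 11.28 on HFD and 3.46, 5.15 and 7.35 on LFD, where 4 of 6 arrays were well above background. The difference was -3.69 (SE 0.69), with an adjusted P = 0.057. Only LFD replicate 4 reached into the HFD range. Without the 3 arrays the difference was -4.47, and it was -2.58 in the deposited table and -2.31 under normexp. Nr1i3, the gene of CAR, was at 12.36, 12.61 and 12.87 on HFD and 11.22, 11.73 and 12.72 on LFD, and fell by 0.81 on the log2 scale (SE 0.20). Its 1 overlapping LFD array was replicate 3. A second Nr1i3 probe fell by 0.71 on the log2 scale. Of 32 xenobiotic genes measured, 3 fell and 0 rose by the criteria, against 0.359% and 0.517% of all genes, and the median was -0.12. The third was Cyp2b13, not well above background on any LFD array and on 2 HFD arrays, for which no fold is given. Cyp2e1, an abundant ethanol-oxidising enzyme, was 18.17 ± 0.09 on HFD and 18.03 ± 0.21 on LFD. In the xenobiotic list 9 members lay above 0 and 23 below. Cyp2c29 (-0.02), Ephx1 (-0.09), Por (-0.12) and Cyp3a11 (0.11) differed little, and Cyp2c55 was 0.39 and Gstm3 0.38 higher. Whether the activity of CAR differed was not tested.

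Several members of the Cyp2 family are female-biased in mouse liver, as set by growth hormone. Of 15 female-biased genes measured, 2 passed the criteria as lower (Cyp2b13 and Hao2), both dim, against 0.359% of all genes. Hao2 did not stand well above background in either diet, so it has no fold. Cyp2a4 was well above background on all arrays, at 14.87, 15.91 and 16.68 on HFD and 14.02, 15.12 and 15.50 on LFD, and differed by -0.90 with an unadjusted limma P of 0.0127. The list median was -0.28, and -0.65 without the 3 arrays. Of 16 male-biased genes none was called, and the median was 0.03.

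**Figure D5:**
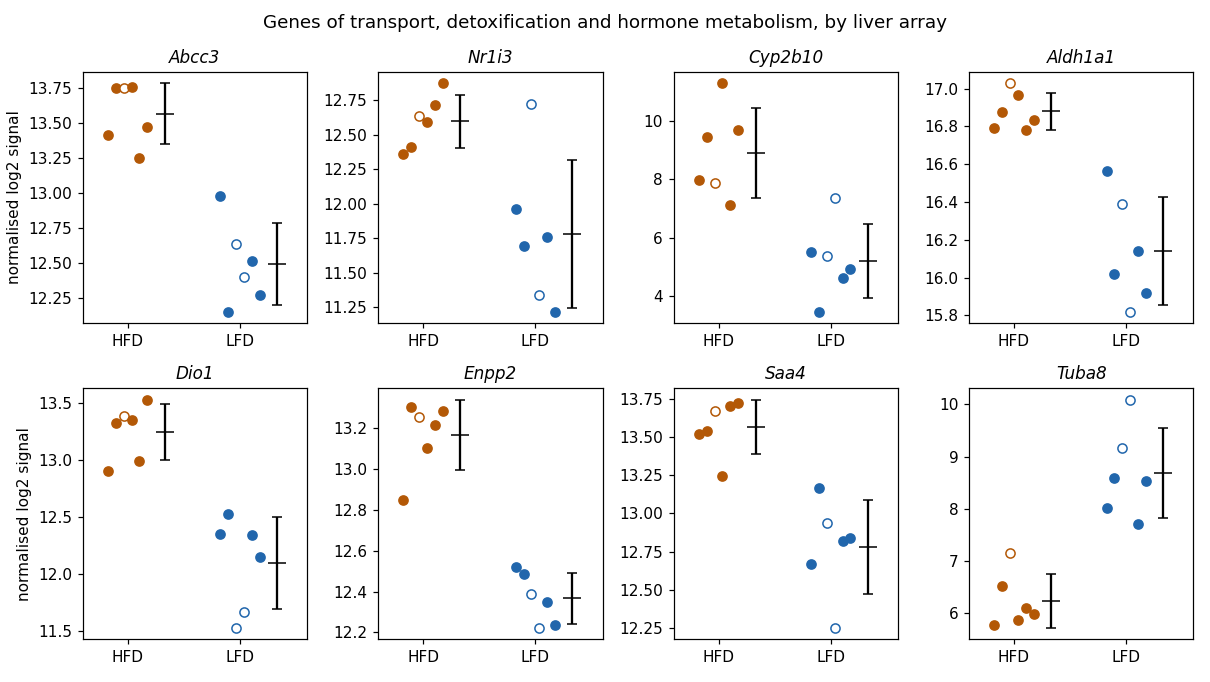
Normalised log2 signal of 8 genes on the 6 HFD (brown) and 6 LFD (blue) liver arrays, with the mean and SD beside each group; open points are HFD replicate 3 and LFD replicates 3 and 4. The groups do not overlap for Abcc3, Aldh1a1, Dio1, Enpp2, Saa4 and Tuba8, and each overlaps at 1 LFD array for Nr1i3 and Cyp2b10.

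Genes with an adjusted P under 0.05 were few, and most were lower on LFD. The 16 probe IDs stood for 12 genes and 2 probe IDs without a symbol. Only 2 of these genes, C730036E19Rik and Dop1b, still had an adjusted P under 0.05 without the 3 arrays with foreign RNA, and these with Abcc3 when HFD replicate 2, 5 or 6 or LFD replicate 6 was left out. With the slide as a block 9 of the 12 genes did, and Saa4 (adjusted P = 0.0575), Fam107b (0.0628) and Cebpe (0.0678) did not. With the HFD and LFD arrays alone in the limma fit 3 genes did (Aatk, C730036E19Rik and Enpp2). There the adjusted P of Dop1b was 0.153, of Tuba8 0.136, of Aldh1a1 0.153 and of Saa4 0.213. Dio1, the deiodinase that makes active thyroid hormone, was at 12.91, 13.34 and 13.53 on HFD and 11.53, 12.25 and 12.53 on LFD (difference -1.15, SE 0.19, adjusted P = 0.0301). All 3 Dio1 probes passed, the others at -1.09 and -1.15, and without the 3 arrays the first was at -0.88. Enpp2 (autotaxin), which makes the signalling lipid lysophosphatidic acid, was at 12.85, 13.24 and 13.30 on HFD and 12.22, 12.37 and 12.52 on LFD (difference -0.80, SE 0.12, adjusted P = 0.0194). Aldh1a1, a retinaldehyde dehydrogenase, was at 16.78, 16.86 and 17.03 on HFD and 15.82, 16.08 and 16.57 on LFD (difference -0.74, SE 0.12, adjusted P = 0.035).

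Saa4, the constitutive serum amyloid A, was at 13.25, 13.61 and 13.72 on HFD and 12.25, 12.83 and 13.17 on LFD (difference -0.79, SE 0.13, adjusted P = 0.035). It was the 1 acute phase gene called of 23, and the list median was -0.03. The inducible Saa1 and Saa2 differed by -0.65 and -0.74, with unadjusted limma P of 0.0288 and 0.0331 and adjusted P = 0.68 and 0.688. By real-time PCR the study reports differences of both genes in LFD liver comparable to those of its fiber diets, which were lower than HFD. Haptoglobin (Hp) was 18.05 ± 0.08 on HFD and 17.81 ± 0.17 on LFD. Other members lay the other way, and 3 were higher and 4 lower at an unadjusted P under 0.05, where 4.28% and 4.04% of all genes were. Fga (fibrinogen alpha chain) was at 14.28, 14.50 and 14.66 on HFD and 14.71, 14.88 and 15.02 on LFD, 0.41 higher with no overlap and an adjusted P = 0.149. Fgb was 0.18 and Orm2 0.29 higher. Without the 3 arrays with foreign RNA the median of acute phase was 0.0613. The non-coding C730036E19Rik had the smallest adjusted P, 0.000211, at a difference of -1.47 (SE 0.15), from 8.84, 8.91 and 9.34 on HFD to 6.89, 7.55 and 7.98 on LFD. The other falls past this threshold were Aatk, a neuronal-type kinase (-1.46), Dop1b (-0.90), Cebpe, a myeloid transcription factor (-0.73), and Fam107b (-0.61). Without the 3 arrays Cebpe was at -0.56 and Fam107b at -0.57, under the fold criterion.

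The named rises past the adjusted threshold were Tuba8 and 1 probe of Lepr. Tuba8, an alpha tubulin, was at 5.77, 6.04 and 7.15 on HFD and 7.70, 8.56 and 10.09 on LFD, a rise of 2.45 (SE 0.40), or 5.47-fold, with an adjusted P = 0.0301. Lepr, the leptin receptor, was read by 4 probes that disagreed. The probe that passed (A_55_P2177911) was at 5.47, 5.77 and 6.96 on HFD and 7.05, 7.92 and 8.65 on LFD, 1.99 higher (SE 0.31, adjusted P = 0.0217). A probe assigned to another transcript was 2.07 higher with an adjusted P = 0.0536. The probe of highest mean signal differed by 0.07, from 11.86 ± 0.29 to 11.93 ± 0.38, and the fourth stayed near background throughout. Of the probe IDs without a symbol, one maps to a long non-coding RNA region at chr5:112205091-112240992 (mm9, as the array design gives it). None of the 12 arrays had it well above background.

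Of the genes past the fold and P criteria that were well above background on every array of HFD or LFD, 12 rose and 20 fell with no overlap between the groups. Over all genes 0.321% and 0.555% had LFD arrays wholly above or wholly below the HFD arrays. Besides Tuba8, the largest such rises were Bhlha15, Atp2b2, Fst and Cd9. Fst (follistatin), a secreted antagonist of activin, was at 7.21, 8.26 and 8.96 on HFD and 9.37, 9.87 and 10.34 on LFD, a rise of 1.63 (SE 0.30, adjusted P = 0.0536). Cd9, a tetraspanin of macrophages and other cells, rose by 1.02 (SE 0.19, adjusted P = 0.0536), from 10.02, 10.43 and 10.81 to 10.95, 11.43 and 12.19. Cd9 was the 1 macrophage marker called of 15, whose median was 0.04. Atp2b2, a plasma membrane calcium pump, rose by 1.83 (SE 0.42) on this probe and by 1.45 on another.

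Bhlha15 (MIST1), a transcription factor of secretory cells such as pancreatic acinar cells, was at 3.23, 4.92 and 5.53 on HFD and 5.58, 7.44 and 8.81 on LFD, a difference of 2.65 (SE 0.64). Its highest arrays were LFD replicates 3 (8.81) and 4 (8.61), and without the 3 arrays it was 1.76 higher and no longer called. Rab3b, Smim22 and Nfxl1 also lost their calls there (0.67, 0.52 and 0.41 higher), while Smim1, Hapln4, Cd55b and Sall2 kept theirs at 0.64 to 0.76. Second probes of Smim1 and Cd55b pointed the other way, at -0.68 and -0.23. Among the 12 largest falls with no overlap were also Sema5b (-1.56), Grin3b (-1.19), Clstn3 (-1.07) and Adora1 (-0.87). Under normexp background correction Bhlha15 was 1.23 higher and Sema5b at -0.85. Without the 3 arrays Sema5b was at -1.48 and Adora1 at -0.57, neither called.

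Signals of insulin and fasting were represented by Igfbp1, a hepatic binding protein of insulin-like growth factors that insulin represses. It was at 10.69, 12.39 and 13.80 on HFD and 12.85, 14.09 and 15.72 on LFD, a rise of 1.87 (SE 0.59) with an adjusted P = 0.45. It was no longer called without HFD replicate 1 (1.55) or 5 (1.67) or LFD replicate 4 (1.56). Igfbp2 was 0.56 higher, under the fold criterion, and Pck1, the gluconeogenic carboxykinase, 0.53 higher with an unadjusted limma P of 0.0266. Igfbp1 was the 1 call among 20 genes of gluconeogenesis, glycogen and insulin signalling, with a list median of 0.07.

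Other pathways gave few or no calls. None of the 20 cholesterol synthesis genes was called by the fold and P criteria, nor had an unadjusted limma P under 0.05, and the list median was 0.13. Fdps, farnesyl diphosphate synthase, was 14.75 ± 0.93 on HFD and 15.24 ± 0.69 on LFD, and Pmvk was 0.67 higher with an unadjusted limma P of 0.058. The sterol control, lipoprotein, amino acid and urea, interferon response and unfolded protein response lists also had 0 calls, with medians between -0.05 and 0.07. Cps1 of the urea cycle was 0.44 higher and Gpt, alanine transaminase, differed by -0.46, each under the fold criterion. Among 22 circadian clock genes 0 passed the criteria. They lay on both sides, with 7 above 0 and 15 below, so the list median does not describe either side. Arntl (1.07), Cry1 (0.61) and Nfil3 (0.49) were among those above. Among those below were Usp2 (-0.88), Dbp (-0.79), Per3 (-0.78), Per2 (-0.62) and Tef (-0.59). A shift in the timing of the clock between the diets was not tested. Their median of -0.42 lay within a spread between arrays of 0.47 (SD), and Dbp, a clock output gene, ranged from 11.42 to 15.19 on HFD and from 11.03 to 14.66 on LFD. Hlf, of the same family, was 0.57 lower with an unadjusted limma P of 0.00837. Of 19 cell cycle genes 1 was called, Ccnd1 (cyclin D1), at 0.67 higher, and the call was lost in 6 of the 12 omissions of a single array, with 0.49 without LFD replicate 4. The list median was 0.22, and 0.08 under the same omission.

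Genes that the study names in liver for its fiber diets were measured in the same comparison. Enho (adropin) was 12.74 ± 0.76 on HFD and 12.43 ± 0.49 on LFD. Cox7a1 (0.49), Cyp21a1 (-0.42), Itgax (-0.15), Lcn2 (-0.56) and Rarres1 (-0.39) did not pass the criteria. The difference between LFD and HFD was also compared with that in cecum, in a joint fit of all 46 arrays. Which liver and cecum arrays came from the same mouse is not given, so the fit treated them as independent. Abcc3 was -1.09 in liver and 0.37 in cecum (adjusted P = 0.00828 for the difference), Aldh1a1 -0.75 and 0.49 (adjusted P = 0.0051), and Dop1b -0.90 and 0.16 (adjusted P = 0.00223). Fabp5 was 2.75 in liver and -0.18 in cecum (adjusted P = 0.0411), and Cd9 1.01 and -0.07 (adjusted P = 0.0378). The fiber diets share these HFD arrays as their control, so their liver means are only set side by side. For Tuba8 the HFD mean was 6.23 and the LFD mean 8.68, with 7.66 on HFD + inulin and a mean of 8.18 on HFD + inul PB. Acaca had means of 13.31 and 14.37, with 13.54 for both fiber diets, and Fabp5 of 12.22 and 14.98, with 12.22 and 12.84. Abcc3 had means of 13.57 and 12.49, with 13.39 and 13.14.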

How the data were processed

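Total RNA of whole liver was labelled with Cy3 and hybridised to one-colour Agilent mouse arrays. The authors deposited Agilent Feature Extraction 10.7.3.1 output, in which the processed signal is a background-subtracted, detrended intensity without normalisation between arrays, and the median spot and background signals are raw intensity. The authors also deposited a table of log2 values, normalised by cyclic loess per the methods; how its background was treated is not given in the sources used here. No sample column was left unused.

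Groups came from the sample labels. Control and outlier spots were left out, the log2 processed signal of all 24 liver arrays was normalised by cyclic loess (span 0.7, 3 iterations), and replicate spots of a probe were averaged. The package limma 3.58.1 in R 4.3.3 fitted the 4 diets in one model. Exact permutation tests used all 924 arrangements of 6 against 6 arrays. The fit was checked on simulated data. Background subtraction widens differences of dim probes. The number of arrays limits precision. No 2 HFD or LFD arrays correlated above 0.987, so none was counted as a duplicate; the study names 6 mice a group, and the labels do not tie arrays to animals.

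Symbols came from RefSeq accessions (GRCm38.p6) for 27509 of 55681 probes; 443 of 453 listed genes had a probe. The result of 1 listed gene is not reported here, though list counts and medians include it. The members, gene lists and tests were chosen with earlier results of these data known. Named genes were those with an adjusted P under 0.05, up to 12 rises and 12 falls without overlap, list members past the criteria, bright or with the smallest P, and genes the study names in liver; bright members that differed little are covered by the counts and medians of their lists, and a few list members with well-known roles were added after their values were seen. Replicate numbers 1 and 2, 3 and 4, and 5 and 6 stood in row 1 and row 2 of the 3 slides in turn, and each diet held the same positions on every slide, so diet and array position cannot be told apart. Alternatives were other scalings, normexp (offset 50, on the median signal because these files hold no mean signal), the deposited table, only probes well above background, outlier spots kept, slide or replicate number as a block, HFD and LFD arrays alone, the mean over all probes of a gene, single arrays left out and the 3 arrays with foreign RNA left out.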

Additional observations from a re-analysis of the deposited data

Results flagged for a closer look

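Among 242 groups of 6 arrays, 1 array lay far from the others in 21, where chance flags about 1 in 20. Among the LFD arrays, replicate 4 was highest for the acinar markers (median 10.4963 above the HFD mean, next array 0.4541), the cell cycle list (0.9236), Scd2 (11.43) and Enho (13.38), and lowest for Dgat2 (16.02) and Gpt (14.23). Among the HFD arrays, replicate 3 was highest for the adipocyte list (2.428) and the interferon response list (0.452). HFD replicate 4 was highest on HFD for Scd1 (17.38), G6pdx (9.949), Fabp5 (13.98) and the Lepr probe A_55_P2177911 (6.962). Among the HFD arrays, replicate 5 was highest for C730036E19Rik (9.342) and lowest for Hp (17.91) and the bile acid list (-0.1283). Single arrays also stood apart for Cyp2e1 (17.99, HFD replicate 2), Dbp (11.42, HFD replicate 1), Hapln4 (5.468) and the cholangiocyte list (-0.7141) on HFD replicate 6, Igfbp2 (14.18, LFD replicate 5) and Cyp21a1 (10.33, LFD replicate 1).

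The difference between LFD and HFD in liver minus that in cecum had an adjusted P under 0.05 for 20 probes, among them Aldh1a1 (-1.2382), Abcc3 (-1.4609), Dop1b (-1.0601), Cd9 (1.0849) and Fabp5 (2.9275).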

How the results depend on the processing

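The count of 399 called probe IDs was 153 with normexp, 196 in the deposited table and 244 among probes well above background, and 343 to 481 when single arrays were left out. The 16 with an adjusted P under 0.05 became 34, 36 and 40 in those 3 settings, 5 with the HFD and LFD arrays alone, 5 without the 3 arrays with foreign RNA (413 by fold and P, 296 higher) and 4 to 32 when single arrays were left out (32 without LFD replicate 3, 25 without LFD replicate 2 or HFD replicate 4, 6 without HFD replicate 3, and 4 where HFD replicate 2, 5 or 6 or LFD replicate 6 was the one removed). With the slide as a block 12 had an adjusted P under 0.05 and 460 were called. With the replicate block, 5 had (4 of the 16, for Abcc3, C730036E19Rik, Dop1b and 1 probe without a symbol, while Saa4 was at 0.124, Fam107b at 0.124, Cebpe at 0.128 and the others at 0.0692) and 454 were called. Each number marks 1 slide and row in both diets. Same-numbered HFD and LFD arrays had correlated deviations of 0.0657 to 0.153 and 4 of 6 correlated best with their own number, with 2 of 6 over 0.1. The main comparison had no block, a choice that these values do not settle. Scaling to the 75th percentile gave 201 higher and 213 lower probe IDs, against 236 and 163.

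Without the 3 arrays the median of bile acid synthesis and transport (-0.0018), the median of female-biased liver genes (-0.6453) and the median of acute phase (0.0613) moved by more than the spread between arrays; no other list median did under any alternative. Of 48 named probes past the criteria, 24 passed under all 22 alternatives run and all 48 kept their direction. Of the 46 others, 16 passed under at least 1. Signs turned for Srebf1 (-0.31 to 0.0554), Itgax (-0.28 to 0.0067) and the brightest Lepr probe (-0.0252 to 0.17) when single arrays were left out, and for that Lepr probe without the 3 arrays (-0.0207). In the fit of HFD and LFD arrays alone 3 lipogenesis genes were called higher. The causes were not tested. Probes near background limit the dim genes, whose differences shrank most in the deposited table (Cyp2b10 -2.58, Pnpla5 1.72).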
